A study of Mus musculus with 5 samples.

Results

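The genes described here are 36 genes known from blood and lymphatic endothelial cells, the cells that line vessels. They were chosen by symbol from knowledge of the cell type and were read from the 5 deposited gene tables of cells sorted from the pancreas of C57BL/6 mice aged 2 to 4 months. The labels name no treatment, transgene or mutation for either population of freshly sorted cells: CD133(positive)CD71(negative) cells (2 libraries) and CD133(high)CD71(low) cells (3 libraries). Prom1 encodes CD133, a membrane protein of progenitor and duct cells, and Tfrc encodes CD71, the receptor for transferrin. The labels name these 2 proteins as the sorting markers and name no marker for or against endothelial cells. A second label of the CD133(high)CD71(low) libraries gives CD71 as positive, where their titles give it as low. Of the 36 genes, 35 are listed in all 5 tables, among 16992 shared symbols, and 33 reached the mean of 1 needed for testing, among 11769 genes. Levels are RPKM, read counts divided by transcript length and by library depth, which allows levels of different genes to be compared.

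Endothelial cells are held together by junction proteins such as the VE-cadherin encoded by Cdh5, respond to vascular endothelial growth factors and angiopoietins through receptor tyrosine kinases, and take their identity from transcription factors of the ETS and SOX families. The capillaries of the pancreas supply both the enzyme-secreting acini and the islets. Capillary endothelium in secretory organs is often fenestrated, and the fenestral diaphragms are built from the product of Plvap.

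Depth was 19.9 to 41.9 M reads per library (M, 1e6), as estimated from the steps between low values. The labels do not say if libraries of one group were sorted from different mice, so p-values here measure the spread among libraries, which may be technical. Library 3 of CD133(high)CD71(low) is the library whose title carries no number. It stood apart: its table lists 22522 symbols where the other 4 list 18618, and its correlation across genes was 0.911 with library 1 and 0.92 with library 2 of its group, against 0.994 between those libraries and 0.992 between the CD133(positive)CD71(negative) libraries. List counts are therefore also given without it. Over all genes tested the median log2 fold change was 0.31, and median-of-ratios scaling, which equalizes the typical gene, brought it to 0.06. Each log2 fold change is the CD133(high)CD71(low) mean of log2(RPKM + 1) less that of CD133(positive)CD71(negative), a scale that understates the change of low genes.

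To show the sequence before the RefSeq starts of these genes, 250 bases before the start site are given for the 3 fallen genes with the smallest adjusted p that have an entry in the RefSeq promoter table of GRCm38.p6, and for Pdpn, the one gene that rose, which was added after its values were seen. Capitals mark AGGAAG or its reverse complement, letters with the GGAA core that ETS factors such as the products of Erg and Fli1 recognise. The stretches are chr2:26580833-26581082 on the plus strand for Egfl7 (the first of 3 RefSeq entries, whose start matches 1 of 19 GENCODE transcripts), chr3:137340828-137341077 on the plus strand for Emcn, chr10:5593478-5593727 on the plus strand for Myct1 and chr4:143299565-143299814 on the minus strand for Pdpn. Each reads 5′ to 3′ in the direction of transcription. For Myct1 the RefSeq start lies upstream of the GENCODE start at 5593775, and the 1 GENCODE transcript does not hold the bases that follow it, so this entry could not be checked against a transcript.
Egfl7: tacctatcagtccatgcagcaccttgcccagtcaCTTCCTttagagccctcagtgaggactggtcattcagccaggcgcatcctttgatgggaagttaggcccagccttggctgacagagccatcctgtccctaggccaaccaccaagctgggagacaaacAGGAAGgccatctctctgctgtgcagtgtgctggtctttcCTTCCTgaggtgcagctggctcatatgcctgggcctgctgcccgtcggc
Emcn: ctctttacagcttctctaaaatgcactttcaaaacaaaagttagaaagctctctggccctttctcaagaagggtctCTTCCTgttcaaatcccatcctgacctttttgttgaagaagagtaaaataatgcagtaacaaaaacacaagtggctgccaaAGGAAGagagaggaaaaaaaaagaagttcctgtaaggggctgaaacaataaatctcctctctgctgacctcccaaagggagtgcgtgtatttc
Myct1: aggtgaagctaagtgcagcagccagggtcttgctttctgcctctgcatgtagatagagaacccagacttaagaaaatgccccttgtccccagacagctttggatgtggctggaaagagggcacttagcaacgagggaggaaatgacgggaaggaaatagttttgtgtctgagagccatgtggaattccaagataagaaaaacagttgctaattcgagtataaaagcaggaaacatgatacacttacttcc
Pdpn: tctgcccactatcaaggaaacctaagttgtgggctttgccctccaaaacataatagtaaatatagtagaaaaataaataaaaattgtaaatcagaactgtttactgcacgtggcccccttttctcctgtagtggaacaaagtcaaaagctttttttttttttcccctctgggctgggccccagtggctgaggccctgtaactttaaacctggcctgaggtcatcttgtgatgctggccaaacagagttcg

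The Egfl7 stretch holds these letters 3 times, at 216 to 211, 89 to 84 and 49 to 44 bases before the start. The second Egfl7 entry holds them once, at 80 to 75 bases, and the third does not. The Emcn stretch holds them 2 times, at 174 to 169 and 93 to 88 bases before the start. The Myct1 and Pdpn stretches hold AGGAAG on neither strand. A second set of ETS letters, CCGGAA, is in none of the 4 stretches on either strand. Letters recognised by SOX factors, ACAATG, are in none of them on either strand. Of the 36 genes, 18 have a promoter entry, and 15 of those fell. AGGAAG was found on either strand in 8 of the 15 (Cd34, Egfl7, Eng, Emcn, Tie1, Flt1, Rasip1 and Robo4), CCGGAA in 1 (Kdr) and ACAATG in 0, in the first entry of each gene. Over the promoters of 27025 genes of the same length, 29.2% hold AGGAAG, 12.2% hold CCGGAA and 11.0% hold ACAATG. The ETS pair shares a core of 4 letters, and both sets cannot lie on the same core. A match is a description of the letters in this window only.

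Endothelial transcripts were lower in CD133(high)CD71(low) cells across nearly every functional class. Of the 33 genes tested, 31 fell, 1 rose (Pdpn) and 1 passed in neither direction (Ecscr), by limma with a Benjamini-Hochberg adjusted p under 0.05. Over all genes tested 7.22% were called lower and 6.25% higher. The median log2 fold change of the 33 genes was -2.34, against 0.31 over all genes tested, and the fallen genes ranged from -2.77 for Emcn to -1.63 for Sox7. In 31 of the 33 every CD133(high)CD71(low) library lay below both CD133(positive)CD71(negative) libraries, which held for 12.0% of all genes tested. In 1, Pdpn, every one lay above both, which held for 58.2% of all genes tested. The remaining gene, Ecscr, was the one whose groups overlapped. Summed over the 35 listed genes, the level was 1383.8 and 1286.0 RPKM in libraries 1 and 2 of CD133(positive)CD71(negative) cells. It was 407.3, 266.6 and 182.4 in libraries 1, 2 and 3 of CD133(high)CD71(low), a 4.68-fold difference of the means. Without Ecscr, Pdpn and Lyve1, the listed genes that did not lie lower in every CD133(high)CD71(low) library, the sums were 1347 and 1247 against 365.4, 224.8 and 122.5. That 5.46-fold difference is of a list set by these values. In sorted bulk samples such as these, fewer endothelial cells and less RNA per endothelial cell cannot be told apart.

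**Figure D1:**
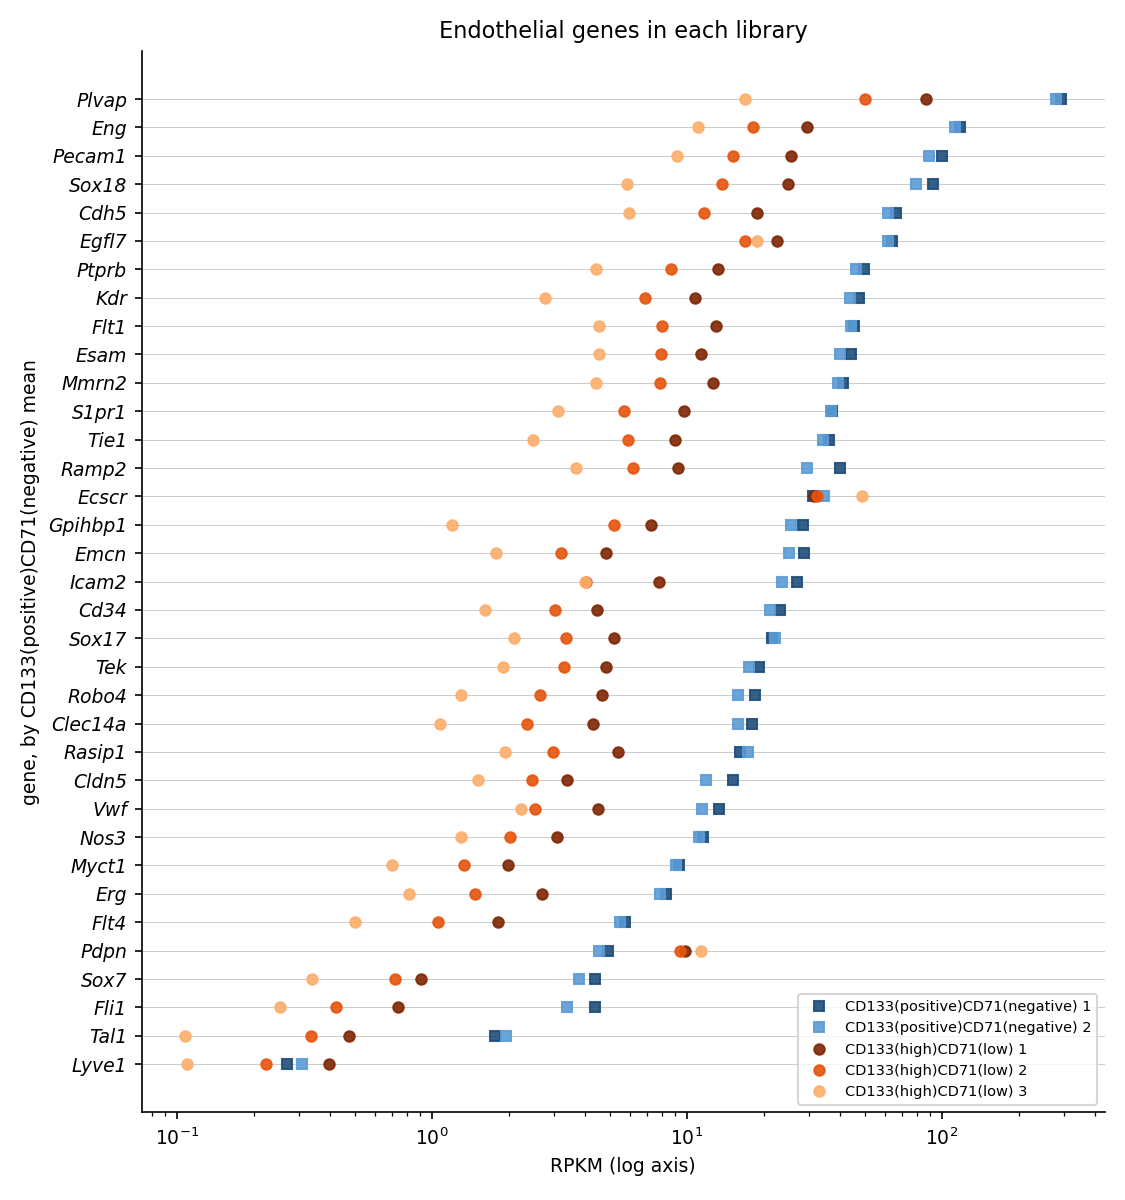
Level of the 35 endothelial genes listed in all tables, in RPKM on a log axis, with 1 row per gene ordered by the CD133(positive)CD71(negative) mean. Squares are the 2 CD133(positive)CD71(negative) libraries and circles the 3 CD133(high)CD71(low) libraries; the circles lie left of the squares in 32 rows, right of them for Pdpn, and overlap them for Ecscr and Lyve1.

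Sox7 and Fli1 had a CD133(high)CD71(low) mean under 1 RPKM and so reached the test through the other group. Of the other 31 genes tested, 29 fell and 1 rose. Tal1 and Lyve1 did not reach it, and Exoc3l2, which encodes a paralog of an exocyst subunit, is listed only in the table of library 3, at 0.65 RPKM. Without library 3 the counts were 32 lower and 1 higher of 34 tested, against 12.2% lower and 40.9% higher over all genes of that fit. Without library 3 the counts by class were as given below, except that Tal1 was tested too and 6 of 6 transcription factor genes fell. Leaving out CD133(high)CD71(low) library 2 left 13 of 34 lower, against 4.75% of all genes of that fit, made up of 5 of 9 junction and surface genes, 1 of 10 receptor genes, 2 of 6 secreted, capillary and enzyme genes, 4 of 6 transcription factor genes and 1 of 2 others. Leaving out either CD133(positive)CD71(negative) library, which leaves 1 library in that group, left 0 lower and 0 higher at the adjusted threshold. In each of those fits 32 of 33 had an unadjusted p under 0.05, against 13.4% of all genes without library 1 and 18.2% without library 2.

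Genes of cell junctions and the endothelial surface fell in 8 of 9 cases, with Ecscr the exception. Pecam1, the platelet and endothelial adhesion molecule CD31, measured 99.7 and 88.6 RPKM in libraries 1 and 2 of CD133(positive)CD71(negative) against 25.5, 15.1 and 9.17 in libraries 1, 2 and 3 of CD133(high)CD71(low), the order kept below. Its log2 fold change was -2.54 (SE 0.40, limma adjusted p = 0.0153). Cdh5, the endothelial cadherin of adherens junctions, measured 66.0 and 61.3 against 18.9, 11.7 and 5.91. Neither gene overlapped between groups, and library 1 was the highest and library 3 the lowest of their CD133(high)CD71(low) libraries. Their ratio moved little: Cdh5 stood at 0.663 and 0.692 of Pecam1 in CD133(positive)CD71(negative) cells, against 0.739, 0.772 and 0.644 in CD133(high)CD71(low) cells.

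Emcn, an endothelial sialomucin typical of capillaries and veins, had the largest fall of all 33 on this scale. It measured 28.8 and 25.1 against 4.80, 3.22 and 1.79, a log2 fold change of -2.77 (SE 0.32, 95% interval -3.56 to -1.98, limma adjusted p = 0.00586). Cd34, a sialomucin shared with blood progenitors, measured 23.2 and 21.2 against 4.45, 3.03 and 1.61. In library 3 Emcn was left at 6.64% and Cd34 at 7.23% of the CD133(positive)CD71(negative) mean. Cldn5, the claudin of endothelial tight junctions, measured 15.2 and 11.9 against 3.38, 2.47 and 1.52. The junctional adhesion gene Esam measured 43.9 and 39.9 against 11.4, 7.88 and 4.54. The groups of neither gene overlapped, and both fell in the limma fit (adjusted p = 0.00773 and 0.0120). Icam2, an adhesion ligand for leukocyte integrins, measured 27.0 and 23.5 against 7.80, 4.03 and 4.00, with libraries 2 and 3 nearly equal. Clec14a, a C-type lectin of the endothelial surface, measured 18 and 15.9 against 4.30, 2.35 and 1.08, with library 3 well below the other CD133(high)CD71(low) libraries.

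All 10 receptor genes tested fell, with log2 fold changes from -2.72 for Kdr to -1.68 for Flt4 (limma adjusted p from 0.00989 for Tek to 0.0209 for Kdr). Kdr, the main signalling receptor for vascular endothelial growth factor A, measured 47.1 and 43.7 against 10.8, 6.86 and 2.78. Flt1, a receptor for the same factor that can act as a decoy, measured 45.3 and 44.0 against 13, 7.99 and 4.53. Flt4, the receptor for growth factor C that is best known from lymphatic vessels but is also found on fenestrated capillaries, measured 5.74 and 5.48 against 1.82, 1.06 and 0.499. None of the 3 overlapped between groups. Kdr and Flt1 were at a like level in CD133(positive)CD71(negative) cells, with a ratio of 1.04 and 0.994, and at 0.835, 0.859 and 0.614 in CD133(high)CD71(low) cells. Flt4 kept a ratio to Flt1 of 0.127 and 0.125 against 0.141, 0.133 and 0.110.

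Tek, which encodes the angiopoietin receptor TIE2, measured 19.1 and 17.5 against 4.80, 3.31 and 1.90. Its partner Tie1 measured 36.0 and 34.3 against 9.0, 5.88 and 2.49. Ptprb, the phosphatase that removes phosphate from TIE2, measured 49.3 and 46.1 against 13.3, 8.68 and 4.39. These 3 genes of one receptor complex kept their order of level in every library, Ptprb above Tie1 above Tek. The ratio of Tie1 to Tek was 1.89 and 1.95 against 1.88, 1.77 and 1.32, lowest in library 3.

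Eng, the co-receptor endoglin of the transforming growth factor beta family, was among the most abundant at 118 and 113 against 29.7, 18.1 and 11.1 (log2 fold change -2.60 with an SE of 0.38, limma adjusted p = 0.0126). S1pr1, a receptor for sphingosine 1-phosphate that stabilises junctions, measured 37.0 and 36.9 against 9.76, 5.68 and 3.13. Robo4, a roundabout receptor of vessels, measured 18.5 and 15.8 against 4.65, 2.66 and 1.30. For all 3 the groups stood apart, and library 1 was the highest CD133(high)CD71(low) library. Ramp2, which turns the calcitonin receptor-like protein into an adrenomedullin receptor, measured 39.9 and 29.7 against 9.24, 6.17 and 3.69, the CD133(positive)CD71(negative) libraries here being less alike.

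Among 6 genes for secreted proteins, capillary features and enzymes, all fell, and Plvap had the largest SE of the 33 genes tested. Plvap, the fenestral diaphragm gene and the highest of the 35 in both CD133(positive)CD71(negative) libraries, measured 293 and 279 against 86.5, 49.9 and 16.9. The means were 286 ± 10.1 (SD, n = 2) and 51.1 ± 34.8 (SD, n = 3), and the log2 fold change was -2.74 with an SE of 0.65 (limma adjusted p = 0.0494). This call sat near the threshold and was lost with median-of-ratios scaling (limma adjusted p = 0.0635), while without library 3 it was 2.8e-05. Gpihbp1, which anchors lipoprotein lipase on capillaries, measured 28.6 and 25.6 against 7.25, 5.16 and 1.20 (log2 fold change -2.54 with an SE of 0.56, limma adjusted p = 0.0415). It had the lowest remaining level of any fallen gene in library 3, at 4.42% of the CD133(positive)CD71(negative) mean, while in libraries 1 and 2 it was at 26.8% and 19%. With a pseudocount of 0.1, or a minimum mean of 5, neither Plvap nor Gpihbp1 passed.

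Egfl7, a secreted matrix protein of endothelium, behaved differently across libraries. It measured 63.9 and 61.4 against 22.6, 16.9 and 18.9, means of 62.6 ± 1.76 (SD, n = 2) and 19.5 ± 2.89 (SD, n = 3). The log2 fold change was -1.64 (SE 0.15, 95% interval -2.02 to -1.27, limma adjusted p = 0.00291), among the smaller falls with the smallest adjusted p of the set. Library 3 lay between libraries 1 and 2, at 30.2% of the CD133(positive)CD71(negative) mean, where the median fallen gene was at 9.27%. Relative to Pecam1, Egfl7 stood at 0.641 and 0.693 in CD133(positive)CD71(negative) cells and at 0.885, 1.12 and 2.06 in CD133(high)CD71(low) cells.

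Vwf, the clotting factor stored in endothelial granules, measured 13.4 and 11.5 against 4.49, 2.54 and 2.23. Mmrn2, a multimerin of the endothelial matrix that binds CLEC14A, measured 40.9 and 39.2 against 12.7, 7.85 and 4.40. Nos3, the endothelial nitric oxide synthase, measured 11.6 and 11.2 against 3.10, 2.02 and 1.30. The groups stood apart for each of the 3, with library 1 the highest of its group. Their log2 fold changes were -1.75, -2.24 and -2.02 (limma adjusted p = 0.0125, 0.0205 and 0.00796).

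Transcription factor genes fell in 5 of 5 cases tested, where 7.22% of all genes tested were called lower. Of the 5, Sox7 and Fli1 reached the test through the CD133(positive)CD71(negative) group, and the other 3 fell too. Sox18, which with Sox7 and Sox17 forms the F group of SOX factors in endothelium, was the most abundant at 92.1 and 79.2 against 24.9, 13.7 and 5.80 (log2 fold change -2.65 with an SE of 0.54, limma adjusted p = 0.0335). Sox17, the arterial member, measured 21.6 and 22.2 against 5.16, 3.36 and 2.10. Sox7 measured 4.37 and 3.77 against 0.909, 0.714 and 0.340. The 3 related genes kept their order, Sox18 above Sox17 above Sox7, in every library. Sox17 was at 0.235 and 0.280 of Sox18 in CD133(positive)CD71(negative) cells and at 0.207, 0.246 and 0.361 in CD133(high)CD71(low) cells.

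Erg, an ETS factor that maintains junction genes such as Cdh5, measured 8.31 and 7.85 against 2.71, 1.48 and 0.813. Its relative Fli1 measured 4.36 and 3.38 against 0.739, 0.420 and 0.253 and had the lowest remaining level in library 2, at 10.8% of the CD133(positive)CD71(negative) mean. Both fell (limma adjusted p = 0.0187 and 0.00480), Fli1 with the limit of the filter given above. Tal1, a basic helix-loop-helix factor of blood and endothelial progenitors, was too low for the test at 1.77 and 1.95 against 0.473, 0.335 and 0.108. With no filter on low values its log2 fold change was -1.14 (limma adjusted p = 0.00936). Rasip1, a RAS-interacting protein needed for vessel lumens, measured 16.2 and 17.3 against 5.38, 2.99 and 1.94. Myct1, a membrane protein of endothelium and blood stem cells first found as a target of the factor MYC, measured 9.30 and 9.07 against 1.98, 1.34 and 0.696. Both fell without overlap between groups, by log2 fold changes of -2.07 and -2.16 (limma adjusted p = 0.0164 and 0.00614).

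**Figure D2:**
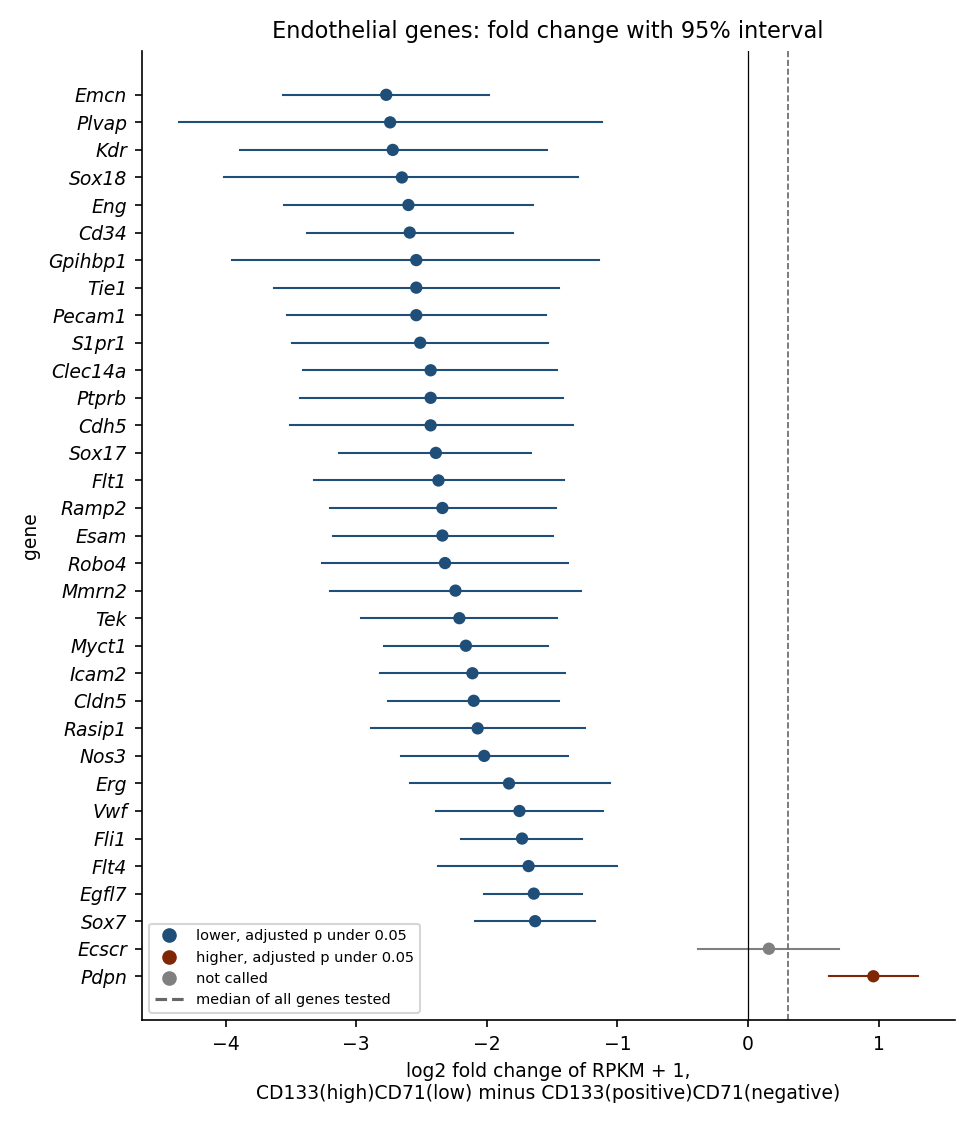
Log2 fold change of RPKM + 1 for the 33 endothelial genes tested, with values above 0 higher in CD133(high)CD71(low) than in CD133(positive)CD71(negative) cells and 95% intervals from limma as bars. Blue points are the 31 genes called lower, red the 1 called higher and grey the 1 called neither; the solid line is 0 and the dashed line the median of all genes tested, 0.31.

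The 3 CD133(high)CD71(low) libraries differed in how much endothelial RNA they held, and most genes moved together between them. Library 1 was the highest and library 3 the lowest of the group for 30 of the 33 genes tested, against 15.0% of all genes tested. The 3 exceptions were Egfl7, Ecscr and Pdpn. The order was not particular to endothelial genes. Among genes tested of the lists described below, it held for 15 of 20 leukocyte and 7 of 13 mesenchymal and mural genes. It also held for 16 of 35 acinar and 2 of 16 duct epithelial genes. As a share of the CD133(positive)CD71(negative) mean, the median of the 31 fallen genes was 27.1% in library 1 (from 17.8% for Emcn to 36.1% for Vwf), 17.6% in library 2 (from 10.8% for Fli1 to 27.0% for Egfl7) and 9.27% in library 3 (from 4.42% for Gpihbp1 to 30.2% for Egfl7). The same median over all genes tested was 118%, 117% and 148%. The spread among the fallen genes was an SD of 0.25 and 0.24 on the log2 scale in libraries 1 and 2 and 0.53 in library 3. The genes thus kept close to one ratio in the first pair of libraries and less so in library 3, whose table lists more symbols. Library 3 also differed more widely over all genes tested. Their ratio of library 1 to library 2 had a 10th to 90th percentile of 0.873 to 1.17, and that of library 1 to library 3 of 0.5 to 1.35. Amylase genes also stood otherwise in library 3. Amy2a2 measured 21.5 and 25.4 in libraries 1 and 2 and 15100 in library 3, and Amy2a5 66600 and 69300 against 16800. Whether the gene models of library 3 differ is not given, and a part of such a difference in the wider spread was not tested.

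**Figure D3:**
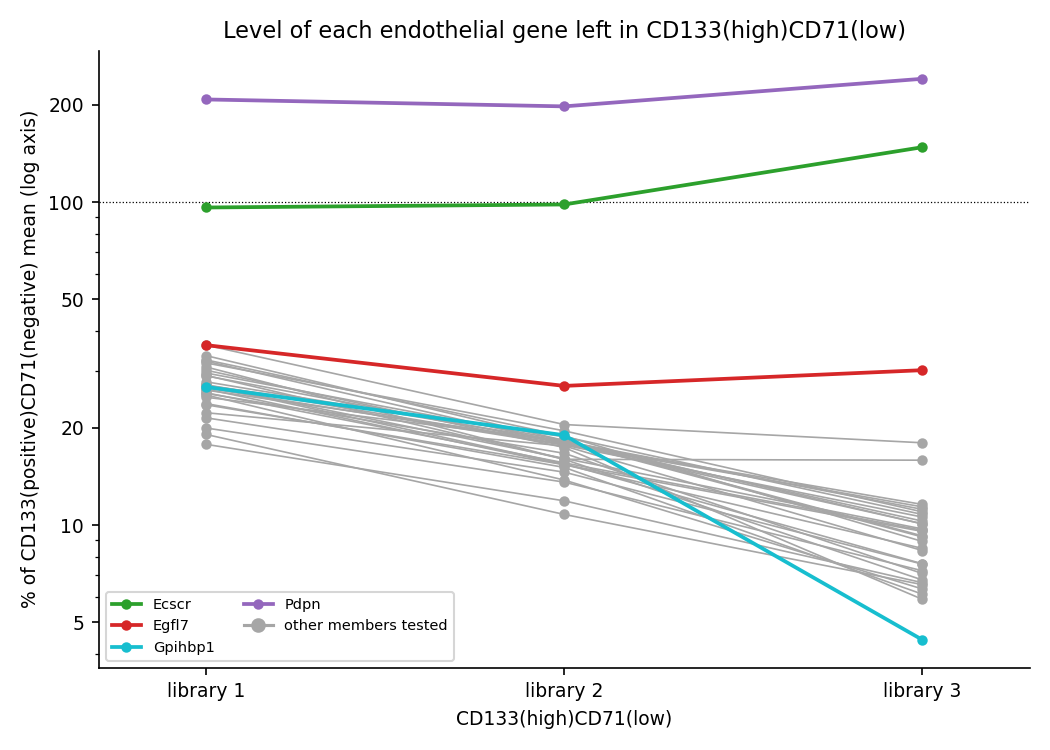
Level of each of the 33 endothelial genes tested in CD133(high)CD71(low) libraries 1, 2 and 3 as a percentage of its CD133(positive)CD71(negative) mean, on a log axis; a line joins the values of 1 gene and carries no order in time. Grey lines are the other genes tested, which lie between 17.8% and 36.1% in library 1, and the coloured lines are Ecscr and Pdpn near or above 100%, Egfl7 at 30.2% and Gpihbp1 at 4.42% in library 3.

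Libraries 1 and 2 each list 18618 symbols and correlated at 0.994 across genes, and their difference does not involve library 3. Library 1 exceeded library 2 for 32 of the 33 genes, Ecscr being the other, against 6699 of 11769 genes tested. The median ratio of library 1 to library 2 was 1.58 for the endothelial genes (10th to 90th percentile 1.34 to 1.81) and 1.02 for all genes tested (0.873 to 1.17). The median ratio of library 1 to library 3 was 2.79 against 0.821, and that of library 2 to library 3 was 1.78 against 0.809. With 1 library on each side these ratios carry no test.

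**Figure D4:**
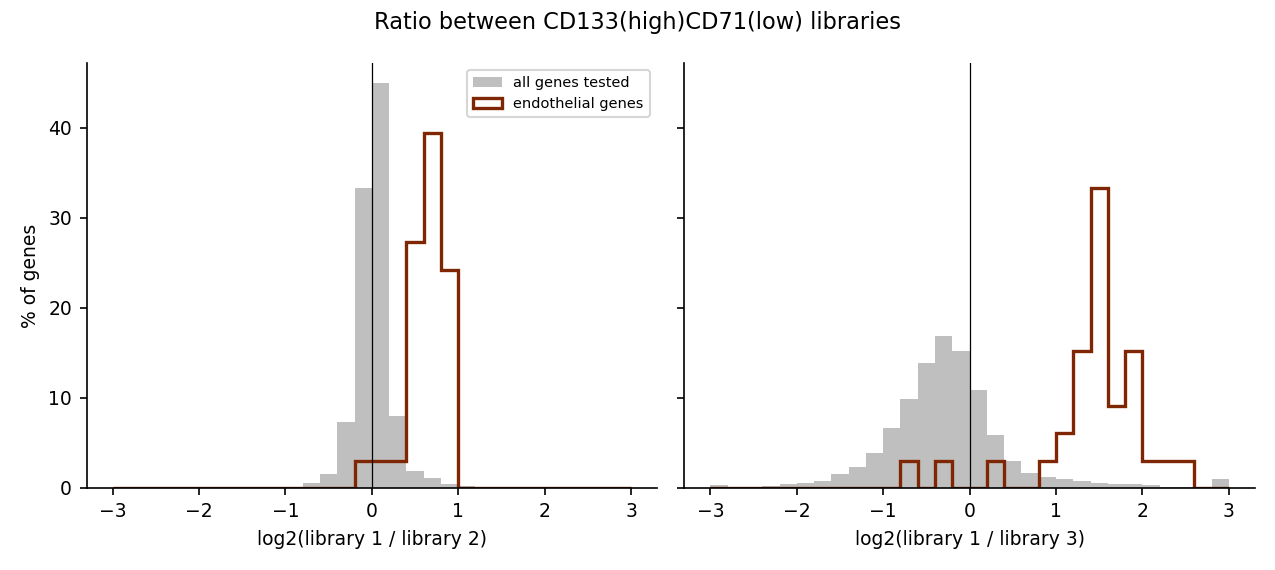
Distribution of the log2 ratio of CD133(high)CD71(low) library 1 to library 2 (left) and to library 3 (right), as a percentage of genes per bin, for the 33 endothelial genes tested (line) and all genes tested (grey); ratios beyond 3 are in the outermost bins. The endothelial genes centre on a ratio of 1.58 on the left and 2.79 on the right, where all genes centre on 1.02 and 0.821.

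Ecscr, which encodes a small endothelial cell surface protein linked to chemotaxis and growth factor signalling, did not fall with the other surface genes. It measured 31.2 and 34.4 RPKM in CD133(positive)CD71(negative) cells and 31.6, 32.3 and 48.4 in CD133(high)CD71(low) cells, means of 32.8 ± 2.23 (SD, n = 2) and 37.4 ± 9.52 (SD, n = 3). Libraries 1 and 2 fell between the CD133(positive)CD71(negative) libraries and library 3 lay above both. The log2 fold change was 0.16 (SE 0.22, 95% interval -0.38 to 0.70, limma adjusted p = 0.562), and this interval does not reach the fold change of any of the 31 fallen genes, the nearest being -1.63. Without library 3 the log2 fold change was -0.04 (limma adjusted p = 0.728). The sign depended on scaling, with -0.13 under median-of-ratios scaling, and in the 4 numbered libraries with that scaling Ecscr was called lower, at -0.23 (limma adjusted p = 0.0359). As a share of the CD133(positive)CD71(negative) mean it stood at 96.3%, 98.4% and 148%, against medians over all genes tested of 118%, 117% and 148%. It lay below those medians in libraries 1 and 2 and at the median in library 3. Among the 35 genes it ranked 15 and 13 by level in CD133(positive)CD71(negative) cells, against 2, 2 and 1 in CD133(high)CD71(low) cells. Its ratio to Pecam1 was 0.313 and 0.388 against 1.24, 2.14 and 5.28.

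Ecscr lies on chromosome 18, 35713086 to 35722356 on the minus strand (mm10). The annotated gene 1700066B19Rik overlaps it on the other strand and shares 62 exon bases with it, and whether reads were counted by strand is not given in the sources used here. That gene was listed at 0.0783 and 0.0201 RPKM against 0.0873, 0.129 and 0.252, far under the level of Ecscr. Within 20 kb lie 2 more genes. Dnajc18, a heat shock co-chaperone gene, measured 3.70 and 3.32 against 4.69, 4.22 and 7.47 (log2 fold change 0.49, limma adjusted p = 0.184). Tmem173, which encodes the innate immune adaptor STING, measured 11.6 and 12.0 against 15.1, 13.6 and 15.8 (log2 fold change 0.30, limma adjusted p = 0.137). Neither neighbour passed the test.

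Ecscr was not the sole member outside the fall, since Pdpn rose. Pdpn (chromosome 4, 143267431 to 143299564, minus strand, mm10) encodes podoplanin, a mucin-type glycoprotein used as a marker of lymphatic endothelium that is also known from mesothelium, stromal cells and several epithelia. It measured 4.92 and 4.53 against 9.84, 9.36 and 11.4, means of 4.73 ± 0.276 (SD, n = 2) and 10.2 ± 1.07 (SD, n = 3). All 3 CD133(high)CD71(low) libraries lay above both others. The log2 fold change was 0.96 (SE 0.14, 95% interval 0.62 to 1.30, limma adjusted p = 0.0113), and it stayed higher with median-of-ratios scaling (0.71, limma adjusted p = 0.0117) and without library 3 (0.89). It lost the call with either CD133(positive)CD71(negative) library left out. Its rank by level among the 35 genes was 31 and 31 in CD133(positive)CD71(negative) cells and 13, 8 and 4 in CD133(high)CD71(low) cells.

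The remaining lymphatic genes were low or did not pass the test. Lyve1, the hyaluronan receptor of lymphatic endothelium and of some macrophages, measured 0.271 and 0.309 against 0.395, 0.224 and 0.110, about 20 and 17.8 reads against 36.6, 20 and 13.3. Its groups overlapped. With no filter on low values its log2 fold change was -0.06 (limma adjusted p = 0.676). Of 6 further lymphatic genes 3 were tested, and 0 passed in either direction by limma. At an unadjusted p under 0.05, 2 were higher, as were 27.5% of all genes, and without library 3 all 3 were called higher, as were 40.9% of all genes. Prox1, the master regulator of lymphatic identity that is also known from pancreatic epithelium, measured 21.4 and 26.1 against 37.5, 36.2 and 51.8 (log2 fold change 0.78, limma adjusted p = 0.0588). Nr2f2, a nuclear receptor of veins and lymphatics, measured 1.40 and 1.75 against 2.42, 2.59 and 5.28 (log2 fold change 0.73, limma adjusted p = 0.138). The untested genes of this list went the other way, all at low levels. Mmrn1, a matrix gene of lymphatic endothelium, was at 0.0338 and 0.0870 against 0.00674, 0 and 0. Ccl21a measured 1.59 and 0.998 against 0.304, 0.00354 and 0.0274, and Reln 0.392 and 0.414 against 0.150, 0.119 and 0.161.

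Further blood endothelial genes outside the 36 mostly fell. Of 30 tested, 25 fell and 1 rose, with a median log2 fold change of -2.06, and without library 3 27 of 30 fell and 1 rose. Over all genes tested 7.22% were called lower, and 12.2% without library 3. Leaving out CD133(high)CD71(low) library 2 left 18 of 30 lower, against 4.75% of all genes of that fit. With either CD133(positive)CD71(negative) library left out, which leaves 1 library in that group, no call of this list was kept. Stab1 and Bcl6b had a CD133(high)CD71(low) mean under 1 and so reached the test through the other group. Eltd1, an adhesion G protein-coupled receptor of vessels, measured 13.6 and 13.3 against 2.83, 2.03 and 1.44 (log2 fold change -2.24, limma adjusted p = 0.00308). Stab1, a scavenger receptor of sinusoids and macrophages, and Cav1, the caveolin of endothelial pits, fell by log2 fold changes of -1.74 and -1.71 (limma adjusted p = 0.00341 and 0.00374). The 4 that passed in neither direction were Procr, Cav2, Aqp1 and Gpr182. Cav2, a second caveolin, overlapped between groups as Ecscr did, at 26.7 and 31.3 against 22.0, 26.3 and 49.0 (log2 fold change 0.08, limma adjusted p = 0.863). The one that rose was Hhex, a homeobox gene of vessels and also of pancreatic duct cells, at 63.6 and 79.2 against 125, 123 and 151 (log2 fold change 0.89, limma adjusted p = 0.0249). Over all genes 6.25% rose. The Hhex call was lost with CD133(high)CD71(low) library 1 or 2 or either CD133(positive)CD71(negative) library left out (limma adjusted p from 0.0738 to 0.283).

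Genes of endothelial Notch and BMP signalling fell in 9 of 14 cases, none rose, and the median log2 fold change was -1.74. Over all genes tested 7.22% were called lower, and 12.2% without library 3. At an unadjusted p under 0.05, 13 of the 14 were lower, against 9.18% of all genes. The count was 14 of 15 without CD133(high)CD71(low) library 3, 3 of 15 without library 2 and 0 without either CD133(positive)CD71(negative) library (9 of 14 at an unadjusted p under 0.05 each time). Dll4, the arterial Notch ligand, measured 24.5 and 23.4 against 7.36, 4.06 and 2.08, and the endothelial receptor Notch4 measured 24.6 and 23.9 against 7.45, 4.06 and 2.47. Both fell (limma adjusted p = 0.0228 and 0.0178). The widely expressed receptor Notch1 measured 22.6 and 23.5 against 18, 16.1 and 17.7 and did not pass (limma adjusted p = 0.0745). Acvrl1, the type I receptor that works with endoglin, had the smallest adjusted p of the list, at 35.1 and 32.5 against 9.84, 7.07 and 6.08 (log2 fold change -2.03, limma adjusted p = 0.00395). The Notch targets Hey1 and Nrarp also fell, by log2 fold changes of -2.10 and -1.57 (limma adjusted p = 0.00678 and 0.00553).

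Vascular ligands and co-receptors included 7 of 13 lower and 1 higher, where 7.22% of all genes tested were called lower. Without library 3 there were 9 lower and 3 higher, and without library 2 5 lower and 0 higher. Over all genes of those fits 12.2% and 4.75% were called lower. All calls of this list were lost with either CD133(positive)CD71(negative) library left out, which leaves 1 library in that group. The share higher was near the 6.25% of all genes, and without library 3 below the 40.9% of all genes. Nrp2 and Calcrl reached the test through the CD133(positive)CD71(negative) group, their CD133(high)CD71(low) means being under 1. Vegfa, the growth factor ligand that KDR and FLT1 bind, was the 1 called higher. It measured 55.9 and 69.5 against 104, 101 and 131 (log2 fold change 0.83 with an SE of 0.18, limma adjusted p = 0.0368). The call was lost with CD133(high)CD71(low) library 1 or 2 or either CD133(positive)CD71(negative) library left out (limma adjusted p from 0.0933 to 0.345). Vegfc, the ligand of FLT4, fell with its receptor gene, at 19 and 17.4 against 6.24, 4.27 and 2.99 (log2 fold change -1.84, limma adjusted p = 0.0116). Angpt1, the ligand of TIE2, measured 11.2 and 13 against 18.3, 19.4 and 27.7 and did not pass (limma adjusted p = 0.0636). Calcrl, the receptor that pairs with the product of Ramp2, measured 2.29 and 2.21 against 0.343, 0.280 and 0.225 and was called lower (log2 fold change -1.34, limma adjusted p = 0.00176), with the limit of the filter just given. The co-receptor Nrp1 fell too, at 23.8 and 23.0 against 6.18, 4.84 and 2.87 (limma adjusted p = 0.00792). Efnb2, an arterial ephrin, and Edn1, the peptide endothelin 1, fell by log2 fold changes of -1.31 and -1.05 (limma adjusted p = 0.00572 and 0.00676). Library 3 was the lowest CD133(high)CD71(low) library for Vegfc, Calcrl, Nrp1 and Edn1 and the highest for Vegfa and Angpt1.

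Leukocyte genes and some mesenchymal and mural genes fell with the endothelial genes, while duct epithelial genes rose or did not pass. The part of other cell types in the endothelial result was not tested. Over all genes tested 7.22% were called lower, and 12.2% without library 3. Leukocyte genes fell in 19 of 20 cases. Without CD133(high)CD71(low) library 1, 2 or 3, 19 of 20, 16 of 21 and 21 of 21 fell. In those fits 784 of 11818, 561 of 11819 and 1425 of 11695 genes were called lower. Fewer leukocyte genes were called with either CD133(positive)CD71(negative) library left out, which leaves 1 library in that group. The summed level of leukocyte genes was 1451 and 1435 RPKM against 83.9, 71.7 and 45.8, a 21.5-fold difference of the means. Of the 20, 11 had a CD133(high)CD71(low) mean under 1 and so reached the test through the group where they were high, and 8 of the other 9 fell. Ptprc, the leukocyte antigen CD45 and one of the 11, measured 9.76 and 10.3 against 0.477, 0.417 and 0.291.

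Mesenchymal and mural genes fell in 6 of 13 cases (9 of 14 without library 3, and 3 of 13 without library 2, where 4.75% of all genes fell). None of these calls was kept with either CD133(positive)CD71(negative) library left out, which leaves 1 library in that group. Over all genes tested 7.22% were called lower, and 12.2% without library 3. Of the 13, 5 had a CD133(high)CD71(low) mean under 1, among them Col1a1 and Dpt, and 3 of the other 8 fell. Col1a1, a fibrillar collagen, measured 5.90 and 5.33 against 0.785, 0.903 and 0.131. Dpt, a dermatopontin of the fibroblast matrix, measured 5.94 and 4.34 against 0.707, 1.01 and 0.233. Vim, the intermediate filament gene vimentin, measured 142 and 126 against 59.9, 57.7 and 70.2 and fell (limma adjusted p = 0.00889). Library 3 was the lowest CD133(high)CD71(low) library for the first pair and the highest for Vim. The summed level of 231.8 and 209.9 against 98.7, 92.2 and 93.8 was mostly Vim. The median share left of the 13 genes tested was 44.6%, 33.2% and 8.88% in CD133(high)CD71(low) libraries 1, 2 and 3, and library 3 was the lowest for 11 of the 13. That median lay above the 27.1% and 17.7% of the 33 endothelial genes tested in libraries 1 and 2 and near their 9.57% in library 3. The pericyte gene Rgs5, by contrast, measured 11.3 and 14.0 against 14.0, 12.0 and 16.8.

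The mesothelial list had 1 gene tested, Igfbp6, at 4.32 and 4.61 against 0.533, 0.603 and 0.150, which reached the test through the CD133(positive)CD71(negative) group. Msln, the defining mesothelin, was at 0.519 and 0.548 against 0.517, 0.720 and 0.135. Upk3b, too low for the test, lay higher in every CD133(high)CD71(low) library, at 0.462 and 0.693 against 1.23, 1.5 and 0.762. The other untested genes of this list lay lower at low levels. Wt1 was at 0.152 and 0.147 against 0, 0 and 0.0198, and Lrrn4 at 0.192 and 0.131 against 0.0539, 0.0373 and 0.0321. Duct epithelial genes rose in 11 of 16 cases and fell in none, with sums of 3751 and 4014 against 5489, 5491 and 7656. Over all genes tested 6.25% were called higher and 7.22% lower, and without library 3 40.9% higher and 12.2% lower. Without CD133(high)CD71(low) library 3, 14 of 16 rose. Without library 1 or 2, 2 or 1 of 16 rose, where 89 of 11818 and 40 of 11819 genes were called higher in those fits. No duct call was kept with either CD133(positive)CD71(negative) library left out, which leaves 1 library in that group. Krt19, a duct keratin, measured 74.6 and 81.4 against 156, 142 and 149 (log2 fold change 0.92, limma adjusted p = 0.0089). Of 35 acinar genes 0 passed in limma in either direction (0 at an unadjusted p under 0.05), whereas without library 3 13 fell, and their sum was 341602 and 306866 against 282851, 286073 and 183560. Among 6 erythroid and megakaryocyte genes tested, 3 globin genes with near-identical copies were called higher and Pf4 lower (4 of 5 higher and 1 lower without library 3). Of these, Hbb-b1, Hbb-b2 and Pf4 reached the test through the group where they were high, so the calls are uncertain.

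**Figure D5:**
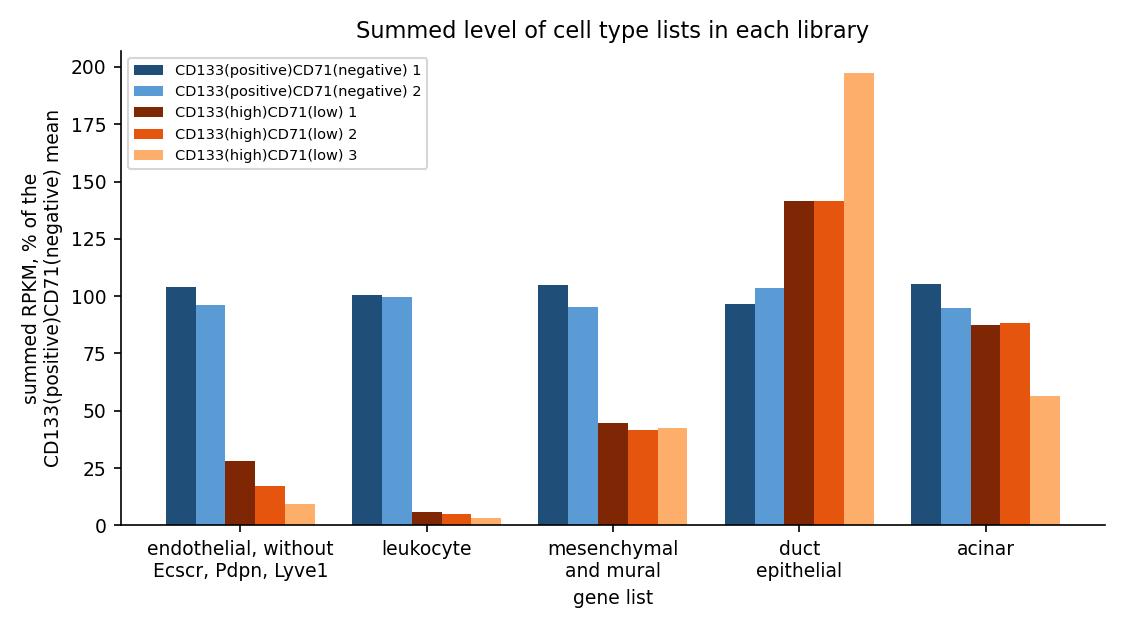
Summed RPKM of 5 gene lists in each library as a percentage of the mean of the 2 CD133(positive)CD71(negative) libraries, with 1 bar per library. The endothelial list, here without Ecscr, Pdpn and Lyve1, stands at 28.2%, 17.3% and 9.44% in CD133(high)CD71(low) libraries 1, 2 and 3, while the leukocyte sum is lower still and the duct epithelial sum is above 100% in all 3.

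Neither sorting marker passed the test, although both means were higher in CD133(high)CD71(low) cells. Prom1 measured 45.8 and 48.8 against 72.8, 74.7 and 133 (log2 fold change 0.91, limma adjusted p = 0.0909), and Tfrc 4.00 and 4.36 against 5.34, 6.84 and 12.2 (log2 fold change 0.75, limma adjusted p = 0.151). Library 3 was the highest of its group for both, as it was for 8264 of the 11769 genes tested. It was the lowest for 30 of the 31 fallen endothelial genes, against 2536 of all genes tested. A link between marker level and endothelial level was not tested.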

How the data were processed

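RNA of sorted cells was sequenced, and the authors deposited a gene table for each library. Partek and mm10 are named in the submitters' processing notes. The sources used here do not give the aligner, the annotation, the strand setting or the unit. The deposited values are taken as RPKM because low values, once scaled by the length of the transcript, lay on multiples of 1 read: 54.5% to 63.0% lay within 0.05 of a whole number, against 10.0% by chance. FPKM cannot be told apart from RPKM in this way. These shares were too low to recover counts, so no count test was run. A row of library 3 naming no gene (74.2 M alignments) was left out. It lies above the 41.9 M reads estimated for that library, and how these numbers relate was not tested.

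Values were transformed as log2(RPKM + 1), and the 11769 genes with a mean of at least 1 entered a fit in R 4.3.3 with limma 3.58.1 (moderated with eBayes and its trend option, with group in the design) and Benjamini-Hochberg adjustment over all of them and a threshold of 0.05. Samples were grouped by title. The fit was tested on simulated data. Members and lists were chosen with earlier results of these data known, so the p-values are not independent of that choice. Named genes were all members, up to 3 fallen and 3 risen genes of each other list with the smallest adjusted p (the 2 highest where none passed), both sorting markers, and the neighbours of Ecscr within 20 kb; others, such as Cav2, Dll4, Notch4, Notch1, Vegfc, Angpt1, Nrp1, Rgs5, Bcl6b, Nrp2, Msln, Mmrn1 and Procr, were chosen after their values were seen. Positions are from GENCODE vM21 (mm10). The 13 alternatives tried comprise a pseudocount of 0.1, no filter, a minimum mean of 5, quantile normalization, median-of-ratios scaling, removal of acinar genes with rescaling, each of the 5 libraries left out, median-of-ratios scaling of the 4 numbered libraries, and the replicate number as a block. Intervals are 95% limma intervals. Figures were drawn with matplotlib 3.10.9 in Python 3.11.15.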

Additional observations from a re-analysis of the deposited data

How the results depend on the processing

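All 31 fallen genes kept a log2 fold change below 0 under each of the alternatives that tested them (398 of 398 values). Over leaving out each library in turn, the count of endothelial genes called lower ranged from 0 to 32 and that called higher from 0 to 1; the values of 0 came from leaving out either CD133(positive)CD71(negative) library, which leaves a lone library assumed to vary like the other group, and adjusted p of the fallen genes was then at most 0.344 (limma). Of the 31, 12 were called lower with each CD133(high)CD71(low) library left out in turn. Over the other alternatives 24 of 28 to 33 of 34 were called lower and 1 higher. The count over all genes, 850 lower, became 1729 with no filter, 315 with a minimum mean of 5, 1931 with median-of-ratios scaling of the 4 numbered libraries, and 154 to 1425 with each library left out. The count of 735 higher became 312 with median-of-ratios scaling, 404 with acinar genes removed, 1782 with median-of-ratios scaling of the 4 numbered libraries, and 0 to 4785 with each library left out. The log2 fold change of Ecscr, 0.16, was -0.13 with median-of-ratios scaling, -0.12 with quantile normalization, -0.07 with acinar genes removed, -0.04 to 0.26 with each library left out (-0.04 without library 3) and -0.23 with median-of-ratios scaling of the 4 numbered libraries. The cause was not tested. Whether equal replicate numbers mark paired samples could not be decided. The correlation of deviations was -0.02 for same numbers. Deviations of the numbered libraries mirror each other within a group, so the crossed value, 0.02, only changes the sign and adds no comparison. The replicate block on the 4 numbered libraries, with 1 residual degree of freedom, gave 1543 lower and 5275 higher over all genes. It gave 32 and 1 among the endothelial genes, and -0.04 for Ecscr. Depth limits Lyve1 and Tal1, for which library 3 held about 13.3 and 19 reads at its estimated depth.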
